A study of Cynoglossus semilaevis with 30 samples.

Results

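The hypothalamic releasing and inhibiting peptides were represented by 9 genes, chosen by name with earlier results of these data known, out of 22292 genes in a table deposited for Cynoglossus semilaevis, the Chinese tongue sole, a flatfish of the sea. They were crh (corticotropin-releasing hormone), trh (thyrotropin-releasing hormone), adcyap1a and adcyap1b (pituitary adenylate cyclase-activating polypeptide, PACAP), gnrh2 and gnrh3 (gonadotropin-releasing hormones) and sst1.1, sst1.2 and sst6.1 (somatostatins). The table itself named crh (gene ncbi-103377128), trh (ncbi-103385489) and gnrh2 (ncbi-103386632). The other 6 carry the symbols used here in RefSeq and were listed by number alone, adcyap1a as ncbi-103377449, adcyap1b as ncbi-103396432, gnrh3 as ncbi-103387652, sst1.1 as ncbi-103378379, sst1.2 as ncbi-103378333 and sst6.1 as ncbi-103384957.

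Sequenced tissues were the brain, the pituitary, the gonad, the liver and muscle, taken from females aged 1.7 years, which the labels divide into a large and a small size class. Each of the 10 groups of tissue and size class had 3 libraries, and each library held the pooled RNA of 2 fish. The series description gives 6 females of each size class, without saying which fish went into which library. Libraries of 3 groups were much more alike than those of the others. Their chi-square per gene was 1.7 to 1.82 in small pituitary and 1.82 to 2.03 in small muscle. In large gonad it was 1.93 to 2.47, and in the other groups 5.39 to 40.5. Whether such libraries held separate fish was not tested. If they did not, size tests in pituitary, muscle and gonad do not measure the spread between fish. The labels give no genetic change or treatment, and no division of the brain into regions, so hypothalamic cells made up an unknown share of each brain library. The libraries held 6130667 to 10504899 estimated fragments assigned to genes.

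In vertebrates these peptides are made by neurons of the hypothalamus, and in teleost fish the axons of such neurons run into the pituitary, where the peptides bind receptors on hormone-producing cells. Corticotropin-releasing hormone drives the release of corticotropin, thyrotropin-releasing hormone can release thyrotropin and prolactin, gonadotropin-releasing hormones drive the gonadotropins, PACAP raises cyclic AMP in several pituitary cell types, and somatostatins inhibit the release of growth hormone. Neurons outside the hypothalamus also make them, and somatostatins are made by endocrine cells of the gut and pancreas as well.

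Summed markers of pituitary, neurons, oocytes and liver were highest in pituitary, brain, gonad and liver, though not limited to them. Summed over 10 pituitary hormone genes and pou1f1, a transcription factor that activates some of them, the level was 70949 to 105907 CPM (counts relative to library size, scaled over all 30 libraries) in pituitary and at most 139 CPM elsewhere. The sum of 16 neuron markers was 1386 to 1897 CPM in brain, 362 to 596 CPM in pituitary and at most 46.2 CPM in the other tissues. That of 10 oocyte markers was 4200 to 6423 CPM in gonad, 337 to 1560 CPM in muscle and at most 68.5 CPM elsewhere. That of 15 liver markers was 235712 to 477561 CPM in liver, 1489 to 3902 CPM in brain and at most 420 CPM in pituitary and gonad. In muscle it was 6292 to 6633 CPM in small females and 8840, 572.5 and 662 CPM in large females. A few libraries stood apart. The second large pituitary library had a glial sum of 2166 CPM, against 596 to 981 CPM in the other 5. The third large brain library had a glial sum of 17745 CPM, against 8313 to 12394 CPM. It also had the lowest brain sum of 18 transcription factor genes of the hypothalamus, 53.6 CPM against 75.7 to 87.0 CPM. That last sum was not particular to brain: it was 60.7 to 67.1 CPM in pituitary and 27.7 to 53.5 CPM in liver. In bulk tissue, fewer cells that make a peptide and less RNA per cell cannot be told apart.

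Of the 9 genes, 8 had their highest mean in brain, and sst6.1 had its highest in gonad. Against pituitary 9 of 9 members were higher in brain, where 34.2% of all 19511 genes tested were higher in brain. Against liver 9 of 9 were higher (43.8% of all genes). Against gonad 8 were higher (50.1% of all genes), and sst6.1 was lower (37.1% of all genes). Against muscle 8 were higher (35.4% of all genes), 0 were lower, and sst6.1 did not pass. These counts are from edgeR's quasi-likelihood test on all 30 libraries at an adjusted p under 0.05. The median fitted log2 difference of the members was 5.62 against pituitary, 6.64 against liver, 6.01 against gonad and 5.75 against muscle, beside medians over all genes tested of 0.13, 0.43, 0.61 and -0.09. With genes at 0 counts set to a bound from a floor of 3 counts, the members' medians were 5.13, 5.43, 5.31 and 5.45. DESeq2 called 6 of 9 against pituitary, liver and gonad and 5 of 9 against muscle, where it called 55.2%, 64.8%, 79.2% and 69.9% of all genes in either direction. In each tissue comparison the members that DESeq2 did not call and edgeR did were gnrh2, gnrh3 and sst1.1, which had 0 to 3 counts over the 6 libraries of the other tissue. Such counts were not particular to them: trh had 0 in liver and in muscle, adcyap1a had 0 in muscle, and DESeq2 called these.

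**Figure D1:**
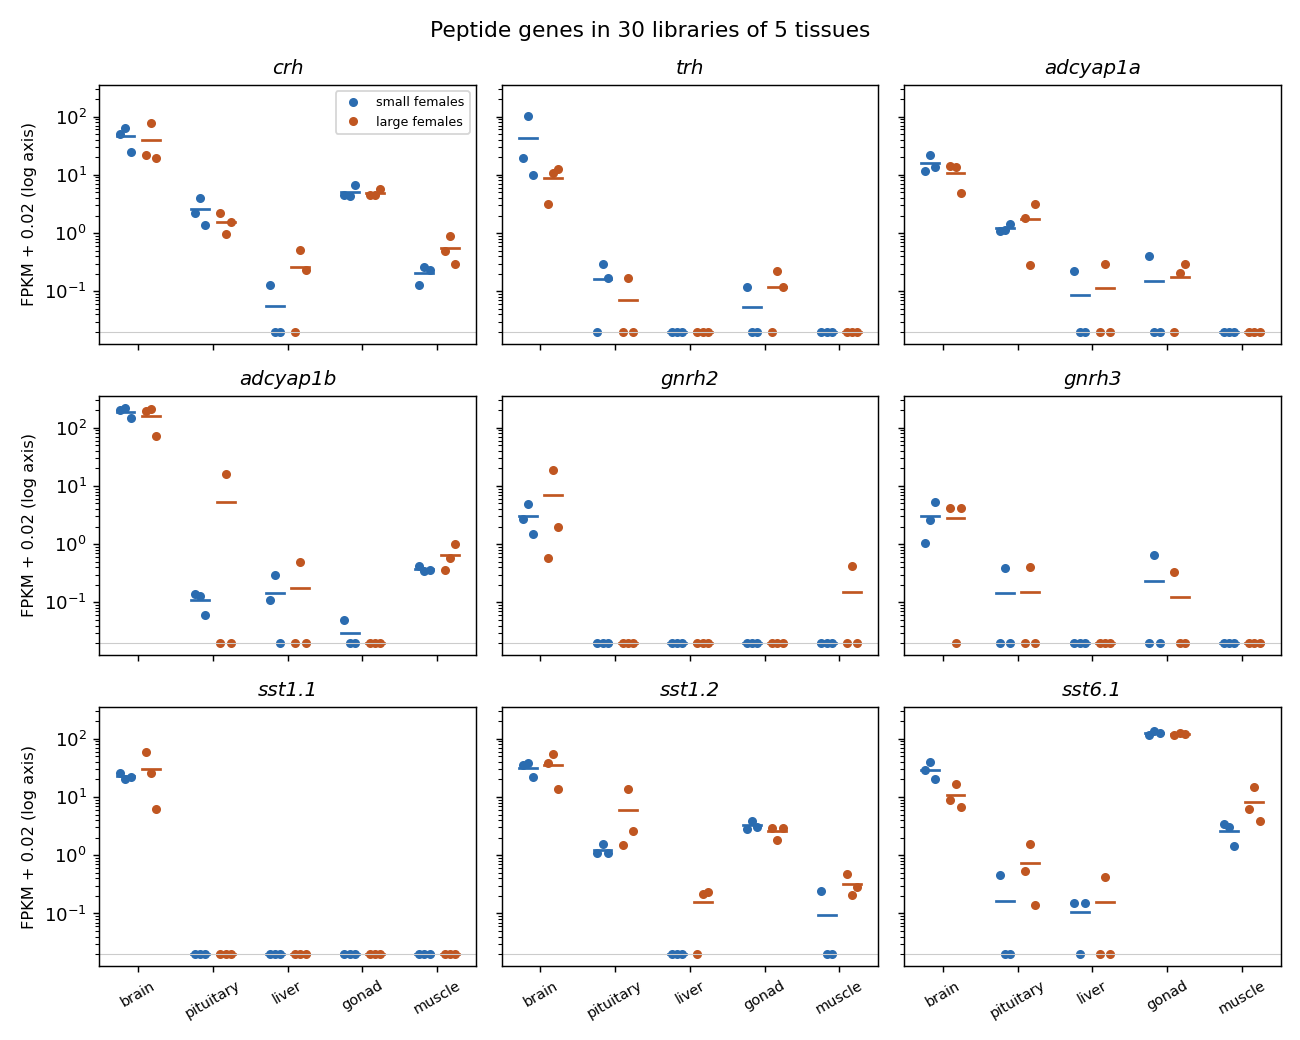
Level of each of the 9 peptide genes in the 30 libraries, in FPKM (fragments scaled for transcript length and library depth) plus 0.02 on a log axis. Points are libraries, short lines are the means of the 3 libraries of a group, and points on the grey line are libraries at 0; brain is highest for 8 genes, and sst6.1 is highest in gonad, at 115 to 137 FPKM.

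Levels of different genes were compared in FPKM, which allows for transcript length. In brain, adcyap1b was the most abundant, at 172 ± 54.7 FPKM (SD, n = 6), and was above crh in 6 of 6 libraries. Next by mean came crh at 42.9 ± 24.8 FPKM, sst1.2 at 33.7 ± 14.6 FPKM, sst1.1 at 26.7 ± 17.5 FPKM, trh at 26.0 ± 36.8 FPKM, sst6.1 at 20.1 ± 12.4 FPKM and adcyap1a at 13.3 ± 5.59 FPKM. The mean of trh was raised by a library at 100.3 FPKM, and trh was above sst6.1 in only 2 of 6 libraries. Medians were 11.6 FPKM for trh, 18.3 for sst6.1 and 13.6 for adcyap1a. The gonadotropin-releasing hormone genes had the lowest levels, gnrh2 at 5.02 ± 6.82 FPKM and gnrh3 at 2.88 ± 2.06 FPKM. An exact two-sided sign-flip test of the log2 ratio within libraries was run on the 8 pairs of neighbours in this order. With 6 libraries its smallest possible p is 0.0312, which adcyap1b over crh reached, so that adjustment over 8 pairs left no room for a single pair to pass (adjusted p from 0.25 to 0.812).

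The corticotropin-releasing hormone gene crh was also read outside the brain in every gonad, pituitary and muscle library. In gonad it had 311 counts over the 6 libraries and 4.31 to 6.56 FPKM, 11.7% of its mean in brain. Pituitary had 94 counts and 0.95 to 3.98 FPKM, 4.74% of brain, muscle 20 counts and 0.11 to 0.86 FPKM, and liver 8 counts with 3 of 6 libraries at 0. Gonad was therefore second to brain for this gene. On the count scale gonad exceeded pituitary 2.99-fold (log2 pituitary minus gonad -1.58 ± 0.35 SE, adjusted p = 0.000185, edgeR), liver 15.04-fold (-3.91 ± 0.62, adjusted p = 2.16e-06) and muscle 5.13-fold (gonad minus muscle 2.36 ± 0.48, adjusted p = 8.07e-05). In gonad the sum of the 16 neuron markers was 11.9 to 18.7 CPM, with 6 to 9 of them at 0. The median neuron marker was at most 0.125% of its brain level there, and the highest 106% to 209.6%, against 11.9% to 22.1% for crh.

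Among the tissues other than brain, which were compared after the levels had been seen, 0 to 3 members were called in each direction. Crh and sst6.1 were lower in pituitary than in gonad (37.4% of all genes) and adcyap1a was higher (46.9%). Against liver, pituitary was higher for crh, adcyap1a and sst1.2 (40.4% of all genes). The call of adcyap1a was lost with a replicate block (adjusted p = 0.0517) and without large pituitary replicate 3, small liver replicates 2 or 3, or large liver replicates 1 or 3 (up to 0.0793). Against muscle, pituitary was higher for adcyap1a and sst1.2 (32.8%) and lower for sst6.1 (40.9%), and the call of sst1.2 was lost without large pituitary replicate 2 (adjusted p = 0.0567). Liver was lower than gonad for crh, sst1.2 and sst6.1 (40.8%) and lower than muscle for sst6.1 (41.8%). Gonad was higher than muscle for crh, sst1.2 and sst6.1 (38%) and lower for adcyap1b (40.4%).

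In brain, crh was at 49.7, 61.3 and 25.4 normalised CPM (scaled within brain) in the 3 libraries of small females and at 22.4, 80.9 and 24.0 in those of large females. The highest and the lowest library were both of large females, and the size classes overlapped. The log2 fold change, large minus small, was -0.09 ± 0.52 (adjusted p = 0.99, edgeR). None of the 9 members passed in brain, where 2 of 16878 genes tested, 0.0118%, were called. At an unadjusted p under 0.05 there were 2 members, trh and sst6.1, and 6.33% of all genes. The median log2 fold change of the members in brain was -0.02, beside -0.004 over all genes, with 4 members above 0 and 5 below.

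The thyrotropin-releasing hormone gene trh was read almost entirely in brain. It had 1127 counts in the 6 brain libraries, 4 counts in pituitary, 4 in gonad, and 0 in liver and muscle. Brain exceeded pituitary 258-fold (exact Clopper-Pearson 95% interval 100.3 to 947) and gonad 291-fold (114 to 1071) in summed normalised counts. Against a floor of 3 counts over the 6 libraries, the level in brain was at least 110-fold higher than in liver and at least 112-fold higher than in muscle.

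Within brain, trh varied 29.8-fold between libraries. It was at 18.1, 88.8 and 9.19 normalised CPM in small females and at 2.98, 10.2 and 14.4 in large females. One library, the second of small females, was far above the other 5, and without it the size classes still overlapped. The log2 fold change was -2.09 ± 0.85 (adjusted p = 0.759, edgeR), and it ranged from -2.56 to -0.59 when each library was left out in turn. The gene most like trh over the 30 libraries was otp (Pearson r = 0.969 of log2 normalised CPM, n = 30, a description only), which encodes the homeobox protein orthopedia, a regulator of neuroendocrine neurons of the hypothalamus. Next was rln3 (r = 0.967), the gene of relaxin-3, a peptide of brainstem neurons in mammals. The 30 libraries share their tissue, so such a correlation chiefly reflects which tissues a gene is read in. In brain, otp was at 9.68 ± 3.08 normalised CPM in small and 4.75 ± 1.78 in large females (log2 fold change -1.018 ± 0.37, adjusted p = 0.697). It was 1 of 11 listed transcription factor genes of the hypothalamus tested in brain. None of the 11 passed with edgeR, and their median log2 fold change was -0.24. Directions differed: lhx6 was at 1.70 ± 0.61 and arx at 1.19 ± 0.52, while sox14 was at -0.94 ± 0.46.

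The PACAP genes differed in level and in distribution. In brain, adcyap1b was the steadiest member, at 333, 349 and 261 normalised CPM in small and 350, 369 and 213 in large females, a range of 1.73-fold, and its log2 fold change was -0.02 (adjusted p = 0.994). The values of the size classes overlapped nearly completely. For adcyap1a they were 12.3, 21.8 and 14.2 in small and 14.9, 14.1 and 6.05 in large females, with overlap and a log2 fold change of -0.45 ± 0.35 (adjusted p = 0.896). RefSeq lists GHRH and prp/pacap among the synonyms of adcyap1b. In fish the gene of PACAP also encodes a PACAP-related peptide, which was long called growth hormone-releasing hormone-like.

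Outside brain, adcyap1a was read in all 6 pituitary libraries (73 counts, 0.26 to 3.17 FPKM, 11.02% of brain), while it had 9 counts in gonad, 5 in liver and 0 in muscle. It passed as higher in pituitary than in gonad (log2 difference 3.01 ± 0.67, adjusted p = 0.000264, edgeR), liver (2.12 ± 0.84, adjusted p = 0.0295) and muscle (6.21 ± 1.49, adjusted p = 0.000747). By contrast, adcyap1b had 202 counts in pituitary, of which 199 were from the second large library. There it was at 27.7 normalised CPM, and at 0 to 0.149 in the other 5 pituitary libraries. The sst1.2 gene had its highest pituitary value in the same library, 7.25 normalised CPM against 0.567 to 1.38. As given above, this library also had the highest glial sum, and its neuron sum was 596 CPM against 362 to 395 CPM. The part of brain tissue in these values was not tested. Without that library, the log2 difference of adcyap1b between brain and pituitary was 12.2 in place of 7.92, and that of sst1.2 was 4.25 in place of 3.51. In gonad adcyap1b had 1 count against 14446 in brain, a ratio of 14938 (exact 95% interval 2681 to 590043).

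The gonadotropin-releasing hormone genes had few reads. All 6 brain libraries held gnrh2, with 115 counts, and outside brain it had 2 counts, both in muscle. The level in brain was at least 35.1-fold higher than in pituitary, at least 11.2-fold higher than in liver and at least 39.6-fold higher than in gonad. Brain exceeded muscle 17.1-fold (exact 95% interval 4.62 to 143). In mammals and fish, gnrh2 is the form of midbrain neurons, and in many fish gnrh3 is the form of the terminal nerve. In brain gnrh2 was at 1.29, 2.23 and 0.707 normalised CPM in small and 0.271, 9.20 and 1.17 in large females, a 33.9-fold range, in which large libraries were the highest and the lowest. Its log2 fold change was 1.36 ± 1.023 (adjusted p = 0.893). The second large brain library held 72 of its 115 counts and was the brain library at 0 for gnrh3, which had 46 counts in the other 5. For gnrh3 the values were 0.351, 0.87 and 1.88 in small and 1.49, 0 and 1.76 in large females, with a log2 fold change of 0.0007 (adjusted p = 0.9999). Neither difference exceeded the spread between libraries.

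**Figure D2:**
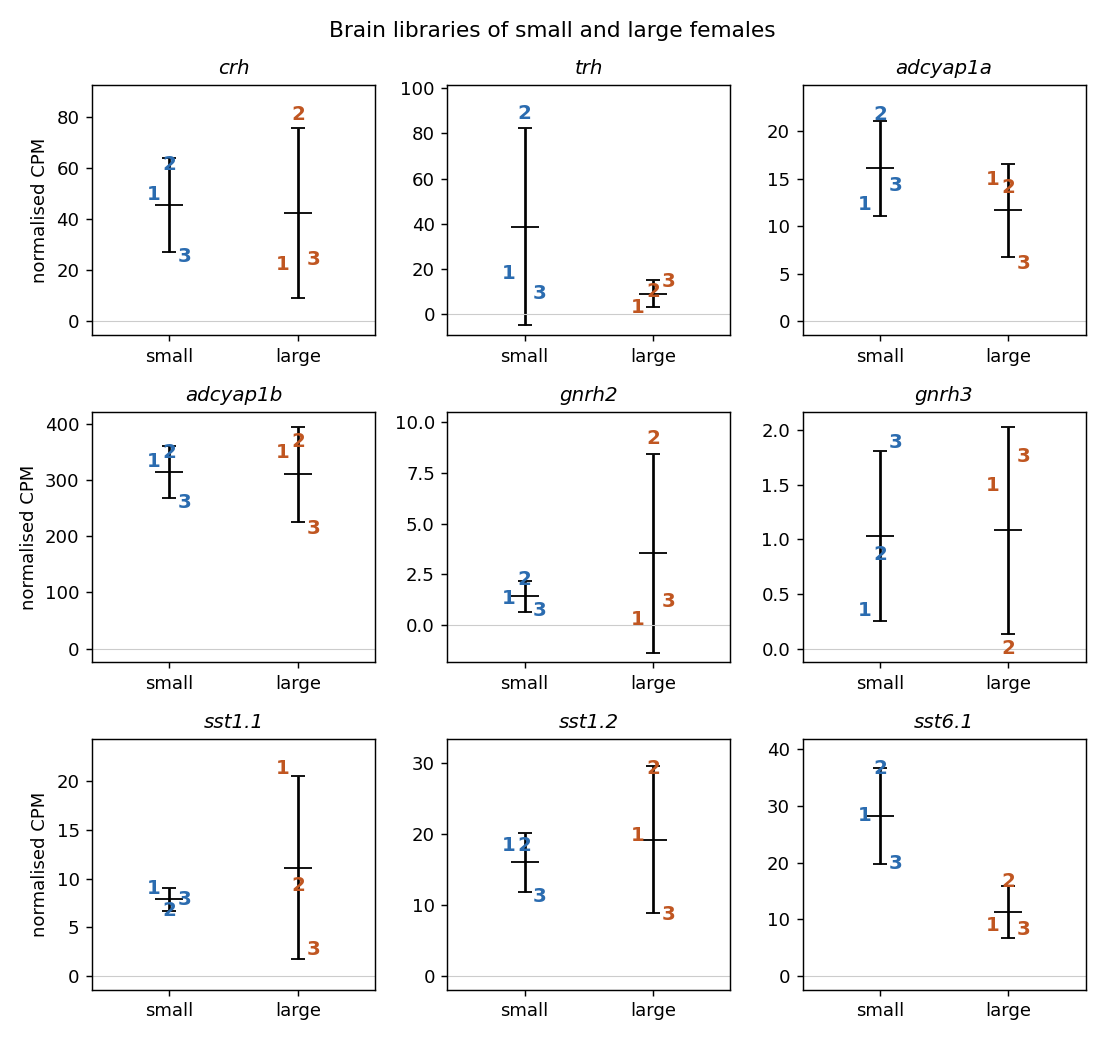
Normalised CPM of the 9 peptide genes in the brain libraries of small and large females, on linear axes. Digits mark the replicate number of each library, and bars give the mean ± SD of 3 libraries. Of the 9 genes, only sst6.1 has size classes that do not overlap, beside 12.1% of all genes tested in brain. Large replicate 3 is the lowest library for 5 of the 9 genes, and for 27.6% of all genes tested in brain.

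The size differences of members that passed were of a somatostatin gene, sst6.1, described after sst1.1 and sst1.2. The gene sst1.1 was read in brain alone, with 442 counts in the 6 brain libraries and 0 in all 24 libraries of the other tissues. The floor of 3 counts over 6 libraries allows up to 0.0391 CPM in pituitary, 0.0345 in gonad, 0.12 in muscle and 0.122 in liver, beside 5.26 CPM over the brain libraries. The level in brain was at least 135-fold higher than in pituitary, at least 152-fold higher than in gonad, at least 43-fold higher than in liver and at least 43.7-fold higher than in muscle. How the authors' counting divided reads that fit similar genes is not stated. The neighbouring gene in the RefSeq assembly is sst1.2, and it was not limited to brain: it had 818 counts in brain, 83 in pituitary, 90 in gonad, 5 in muscle and 2 in liver. Gonad held it at 1.81 to 3.92 FPKM in all 6 libraries, 8.61% of brain, and pituitary at 1.06 to 13.9 FPKM. Its level in brain was 9.40-fold that in gonad in summed normalised counts (exact 95% interval 7.55 to 11.8).

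In brain, sst1.1 was at 9.01, 6.68 and 7.89 normalised CPM in small and 21.3, 9.33 and 2.73 in large females. The 3 small libraries lay close together and between the large ones, and the log2 fold change was 0.52 ± 0.57 (adjusted p = 0.928). The values of sst1.2 were 18.4, 18.3 and 11.2 in small and 19.8, 29.1 and 8.58 in large females, with overlap and a log2 fold change of 0.28 ± 0.40 (adjusted p = 0.943). The gene most like sst1.1 over the 30 libraries was LOC103382482 (r = 0.993), named as the orphan receptor GPR151, which marks habenular neurons in mammals and zebrafish. For sst1.2 it was LOC103389223 (r = 0.968), a gene like FNDC5.

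The highest level of any of the 9 genes outside brain was that of sst6.1 in gonad. It had 7372 counts in the 6 gonad libraries and 115 to 137 FPKM in each of them, 613% of its mean in brain. Gonad exceeded brain 8.85-fold on the count scale (log2 brain minus gonad -3.15 ± 0.27, adjusted p = 1.93e-11, edgeR) and, in the same fit, pituitary 435-fold (adjusted p = 8.43e-17), liver 346-fold (adjusted p = 3.14e-15) and muscle 9.06-fold (adjusted p = 9.02e-11). Muscle had 295 counts and 1.42 to 14.7 FPKM, while pituitary had 19 counts and liver 6. Brain and muscle did not pass as different (log2 difference 0.04 ± 0.29, adjusted p = 0.926). On FPKM, brain was higher by 1.76 on the log2 scale (limma, log2(FPKM + 1), adjusted p = 2.86e-07), but the median of all genes was higher by 1.17 on that scale, and relative to it the difference was 0.59. The gene most like sst6.1 over the 30 libraries was inf2 (r = 0.976), which encodes an actin-assembling formin.

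In brain, sst6.1 was lower in large females in every comparison of single libraries. Small females had 28.3, 36.6 and 19.8 normalised CPM and large females 8.95, 16.6 and 8.19. It was the only 1 of the 9 members whose size classes did not overlap in brain, where 12.1% of all genes tested did not overlap. The log2 fold change was -1.31 ± 0.32, a 2.48-fold lower level (adjusted p = 0.535 over 16878 genes, edgeR). DESeq2 gave -1.32 with an adjusted p of 0.0367, and called 91 genes in brain. Left out in turn, the libraries gave -1.72 to -1.08 with adjusted p from 0.453 to 0.999.

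Levels of some marker sets of other cell types also differed between the size classes in brain, while no single marker passed with edgeR. The glial sum was 15634 to 17810 normalised CPM in small and 20498 to 32563 in large females, without overlap. This sum weighs abundant markers most: s100b was at 6691 ± 985 in small and 12319 ± 5589 in large females. The glial marker glul went the other way, at 3070 ± 225 and 2547 ± 190. Of 14 glial markers tested 0 passed with edgeR, and their median log2 fold change was 0.10. The neuron sum was 2643 to 3204 in small and 2543 to 3449 in large females. The sum of the 10 pituitary hormone genes and pou1f1 was 51.7 to 78.9 in small and 16.8 to 25.2 in large females. Much of it in small females was of LOC103389827, like pro-opiomelanocortin, at 26.72 ± 2.894 in small and 2.655 ± 1.615 in large females. Of the genes of that list tested in brain, only tshba had the other direction, at 0.808 ± 0.597 and 2.214 ± 1.222. With edgeR 0 of 8 genes of that list, 0 of 16 neuron markers and 0 of 5 oocyte markers tested passed. DESeq2 called 2 of the hormone list, LOC103389827 and LOC103380837, both like pro-opiomelanocortin. Of 12 liver markers tested 0 passed, with a median log2 fold change of -1.21. The median oocyte marker in brain was 0.0492% to 0.155% of its gonad level in small and 0.179% to 1.57% in large females, while sst6.1 in brain was 12.2% to 22.4% and 5.14% to 10.5% of its gonad level. The part of these tissues in the brain difference was not tested.

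In gonad, sst6.1 fell in large females by 0.39 ± 0.12 on the log2 scale (adjusted p = 0.0402, edgeR), and of 3 members tested it was the 1 called. Of all genes tested in gonad 24.5% were called and 13.5% were lower. The values were 124, 165 and 142 normalised CPM in small and 106, 113 and 108 in large females, without overlap, as for sst1.2 but not crh. Of all genes in gonad, 45.9% had no overlap. In FPKM the same libraries had 116, 137 and 127 in small and 115, 124 and 119 in large females and did overlap. The difference on that scale was -0.08 (limma, adjusted p = 0.577), with the median of all genes at 0.27, and -0.36 relative to that median. The call was lost without small replicate 3 and without each of the large gonad libraries in turn, with adjusted p from 0.0104 to 0.147 over the 6 libraries left out. The large gonad libraries were among those much alike, as given above. The p-value of sst6.1 and the share of genes called in gonad may therefore rest on a spread that is not between fish. Of 10 oocyte markers tested in gonad, 3 were lower in large females and 1 was higher, beside 13.5% and 10.9% of all genes. Their median log2 fold change was -0.18. The sum of these markers was 8871 to 9274 normalised CPM in small and 6191 to 6392 in large females, without overlap. The part of oocytes in the gonad difference of sst6.1 was not tested. Members other than sst6.1 that were tested in gonad did not pass. For crh the log2 fold change was -0.38 ± 0.26 (adjusted p = 0.304), and for sst1.2 -0.66 ± 0.38 (adjusted p = 0.233).

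In muscle, sst6.1 rose 3.02-fold in large females (log2 1.59 ± 0.43, adjusted p = 0.0266, edgeR). It was 1 of 2 members tested, in a tissue where 23.5% of all genes were called and 13.1% were higher. Small females had 3.38, 3.05 and 1.47 normalised CPM and large females 6.28, 12.5 and 4.53, without overlap, as for 43.5% of all genes in muscle. The call was lost without any 1 of the small libraries and without the second large one, where the log2 fold change was 1.05, and the adjusted p over the 6 libraries left out was 0.0153 to 0.103. Oocyte markers moved with it: 8 of 9 tested were higher in muscle of large females and 0 lower, with a median log2 fold change of 1.59. Their median was 5.25%, 5.57% and 6.38% of the gonad level in small and 13.4%, 27.3% and 17.2% in large females, and that of sst6.1 was 7.82%, 6.92% and 3.43% in small and 15.6%, 30.6% and 11.1% in large females. The part of gonad tissue in the muscle values of sst6.1 was not tested. The small muscle libraries were among those much alike, as given above. The p-value of sst6.1 and the share of genes called in muscle may therefore rest on a spread that is not between fish. The other member tested in muscle, adcyap1b, was at 0.635 to 1.28 normalised CPM in small and 0.862 to 1.62 in large females (log2 fold change 0.14 ± 0.48, adjusted p = 0.854).

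**Figure D3:**
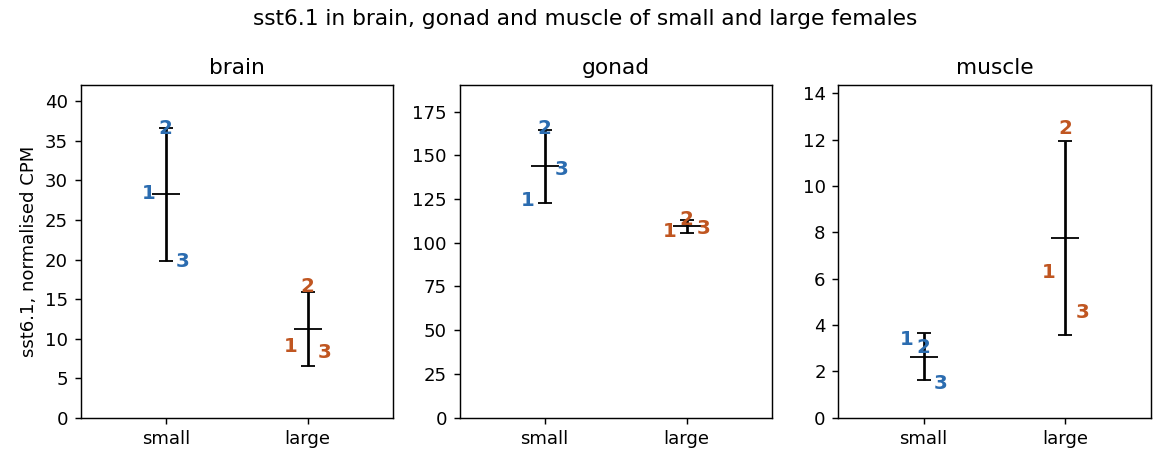
Normalised CPM of sst6.1 in the brain, gonad and muscle libraries of small and large females, on linear axes that start at 0. Digits mark replicate numbers and bars the mean ± SD of 3 libraries. Large females are lower in brain and gonad and higher in muscle, with no overlap in any of the 3 tissues. Of all genes tested, 12.1% in brain, 45.9% in gonad and 43.5% in muscle did not overlap. The brain difference did not pass with edgeR, and in FPKM the gonad values overlap.

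The size effect of sst6.1 differed between tissues (edgeR, F test of 4 contrasts over all 30 libraries, adjusted p = 0.00348), and it was the only member of 9 to pass, in a test that 25.9% of all genes passed. All but 3 of the 10 oocyte markers passed the same test. The gene sst6.1 passed in each of the 30 fits that left out 1 library, with adjusted p from 0.00179 to 0.0127. In 3 of these fits other members passed as well, namely crh without the second large brain library, adcyap1b without large pituitary replicate 1 or replicate 3, and sst1.2 without large pituitary replicate 1. The test takes its spread from all 30 libraries, those much alike among them, as given above. Its p-values and the share of genes that passed it may therefore rest on a spread that is not between fish. Leaving out 1 library at a time does not remove that limit.

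**Figure D4:**
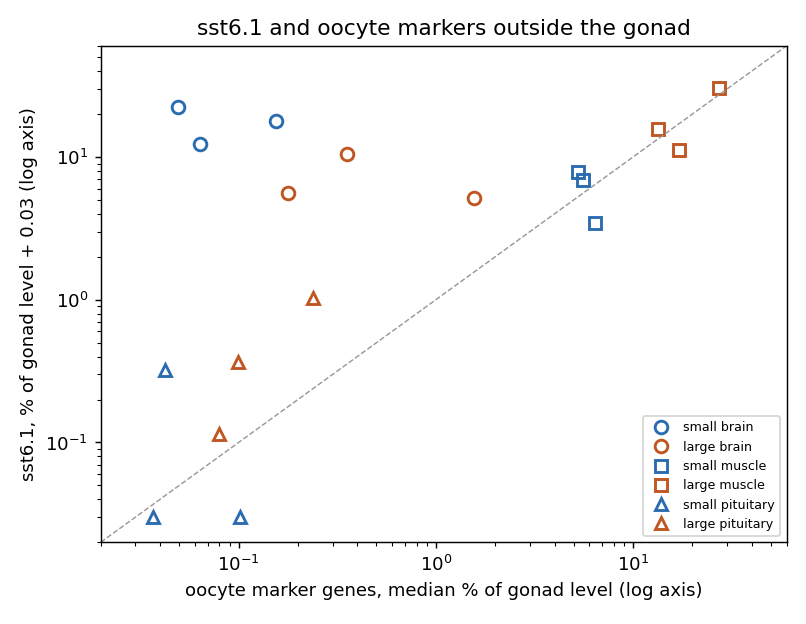
Level of sst6.1 against the median of 10 oocyte markers in brain, pituitary and muscle libraries, both in % of the mean gonad level, on log axes with 0.03 added to sst6.1. The dashed line marks equal percentages; muscle libraries lie near it, at 3.43% to 30.6% for sst6.1, and brain libraries lie above it.

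In pituitary and liver no member passed between size classes. Pituitary had 2 members with enough counts to be tested, in a tissue where 5.82% of all genes were called, and 0 had an unadjusted p under 0.05, DESeq2 called 0, and 0 of 2 had size classes without overlap (29.5% of all genes). The crh values were 2.38, 4.26 and 1.42 normalised CPM in small and 2.17, 0.975 and 1.63 in large females, with a log2 fold change of -0.74 ± 0.49 (adjusted p = 0.405). For adcyap1a the change was 0.53 ± 0.68 (adjusted p = 0.692). In liver, where 1.31% of all genes were called, 0 members could be tested, and the highest had 19 counts over the 6 libraries.

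Receptors of the peptides were followed through a list of 27 genes matched by name. In mean FPKM 13 were highest in brain, 9 in pituitary, 3 in gonad and 2 in liver. The most abundant in pituitary was a somatostatin receptor type 5-like gene, LOC103392947, at 82.6 FPKM, against 0.285 FPKM in brain. In brain it was adcyap1r1a, a PACAP receptor, at 23.3 FPKM, against 1.24 FPKM in pituitary. Of 17 receptors tested between size classes in brain with edgeR 0 passed and 0 had an unadjusted p under 0.05. Their median log2 fold change was 0.05. DESeq2 called 0 of the 21 that it gave an adjusted p.

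In pituitary 2 of 11 receptors tested were higher in large females and 1 was lower, with a median log2 fold change of 0.08, beside 2.42% of all genes higher and 3.4% lower. The gene vipr1, a receptor of vasoactive intestinal peptide and PACAP, rose from 54.4 ± 3.40 to 169 ± 48.5 normalised CPM (log2 1.64 ± 0.19, adjusted p = 0.00304, edgeR). The other rise was of LOC103388047, a gonadotropin-releasing hormone receptor-like gene, from 0.792 ± 0.638 to 4.38 ± 1.17 (2.42 ± 0.52, adjusted p = 0.0331). The fall was of trhrb, a thyrotropin-releasing hormone receptor, from 22.6 ± 1.98 to 10.1 ± 3.62 (-1.15 ± 0.23, adjusted p = 0.0273). The call of vipr1 held in all 6 fits that left out a library, with adjusted p from 7.15e-06 to 0.0418, while the other 2 were lost without some libraries, with adjusted p up to 0.169 for LOC103388047 and up to 0.142 for trhrb. Both were also lost in 1 fit of all 30 libraries (adjusted p = 0.0547 and 0.206) and with limma on log2(FPKM + 0.1) (0.0544 and 0.0602). The small pituitary libraries were among those much alike, as given above, so p-values in pituitary may rest on a spread that is not between fish.

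**Figure D5:**
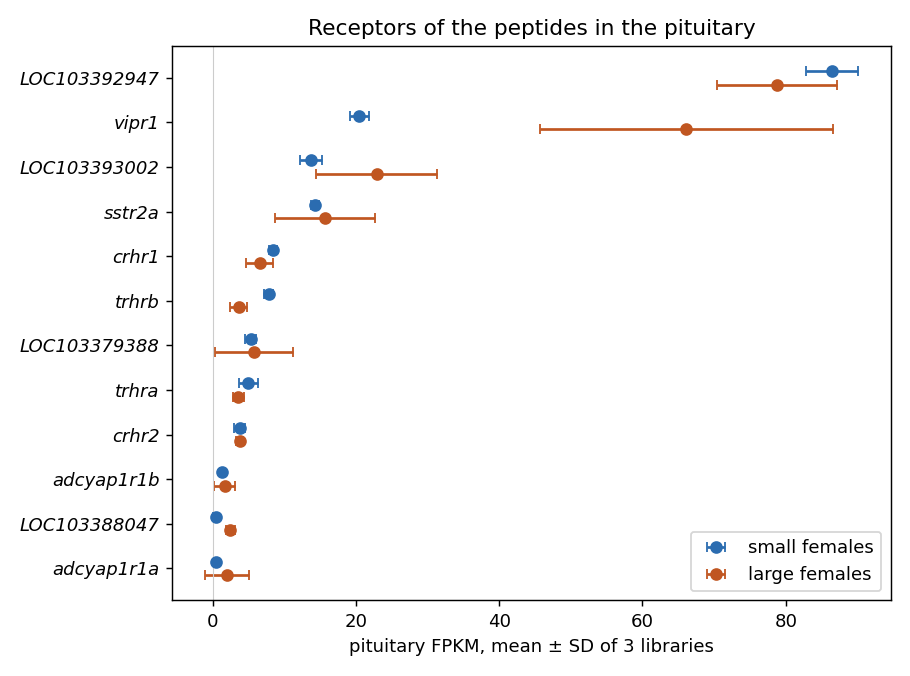
Level of 12 receptor genes in the pituitary of small and large females, in FPKM on a linear axis. Points are means and bars SDs of 3 libraries; vipr1 is higher in large females and trhrb lower, and LOC103392947 has the highest level, with a mean of 82.6 FPKM over both size classes.

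Among the genes that cut, amidate, bind or break down these peptides, 12 were listed. Of these, 8 were highest in pituitary, 2 in gonad and 1 each in brain and liver. Between size classes 0 of 12 passed with edgeR in brain, where 1 had an unadjusted p under 0.05 and DESeq2 called 1, crhbp. In pituitary 0 of 12 passed with edgeR, 3 had an unadjusted p under 0.05 and DESeq2 called 1, qpctl. Of all genes, 6.33% in brain and 22.8% in pituitary had an unadjusted p under 0.05 with edgeR. DESeq2 called 0.498% and 6.88% of all genes there. The lowest p in brain was that of crhbp, which binds corticotropin-releasing hormone and withholds it from its receptors, at 7.70 ± 1.77 normalised CPM in small and 2.46 ± 0.719 in large females (log2 fold change -1.65 ± 0.35, adjusted p = 0.435). In brain the prohormone convertase gene pcsk1 was at 89.1 ± 19.6 and 68.4 ± 26.2 (-0.38 ± 0.30, adjusted p = 0.896).

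Other peptides of hypothalamic and neighbouring neurons were listed as 29 genes, th and ddc, enzymes of dopamine synthesis, among them. Of the 29, 24 were counted as highest in brain, th and ddc included. This count takes in sst5, which was at 0 FPKM in every tissue. In brain 0 of 21 tested passed between size classes with edgeR, and 8 had an unadjusted p under 0.05. DESeq2 called 4 of the 26 that it gave an adjusted p (pmch, pmchl, agrp and gal). Over all genes in brain these shares were 6.33% and 0.498%. The median log2 fold change of the 21 was -0.84 beside -0.004 over all genes. In the same brain libraries the glial sum and the sum of the hormone list did not overlap between size classes, as given above. The part of glia or pituitary tissue was not tested. Of the 21, the lowest p was that of pmch, the gene of melanin-concentrating hormone, at 160 ± 78.8 normalised CPM in small and 7.31 ± 3.91 in large females (log2 fold change -4.47 ± 0.51, adjusted p = 0.111, edgeR). In pituitary 5 of 8 tested with edgeR had an unadjusted p under 0.05 (22.8% of all genes). DESeq2 called 4 of the 14 that it gave an adjusted p (6.88% of all genes). These were agrp, a cholecystokinin gene, pdyn and ghrh, which was not among the 8. With edgeR 1 of 8 passed, agrp, the gene of agouti-related peptide, which fell from 428 ± 9.19 to 228 ± 58.4 (-0.91 ± 0.16, adjusted p = 0.0157).

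Pituitary targets of the peptides were listed as 11 genes, 10 of hormones and pou1f1, all highest in pituitary, and 10 of the 11 were tested there. The thyrotropin subunit gene tshba was higher in large females, at 2180 ± 56.9 and 4445 ± 1287 normalised CPM (log2 1.03 ± 0.18, adjusted p = 0.0168, edgeR), and the growth hormone gene gh1 lower, at 28217 ± 1349 and 12425 ± 3467 (-1.18 ± 0.18, adjusted p = 0.00878). The other 8 did not pass with edgeR, while 5 of the 10 had an unadjusted p under 0.05 and DESeq2 called 5, the further 3 being LOC103389827, LOC103393769 (both like pro-opiomelanocortin) and pou1f1. Of all genes in pituitary 22.8% had an unadjusted p under 0.05, and DESeq2 called 6.88%. The calls of tshba, gh1 and agrp were each lost without any 1 of the small pituitary libraries, with adjusted p from 0.0577 to 0.0673 for gh1, 0.0917 to 0.0971 for agrp and 0.102 to 0.111 for tshba, and in 1 fit of all 30 libraries. Among markers of other tissues in pituitary, 5 of 13 liver markers tested fell in large females and 0 rose, 1 of 7 glial markers fell, and 0 of 13 neuron markers passed, beside 3.4% of all genes lower and 2.42% higher. Their part in the pituitary differences was not tested.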

How the data were processed

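The deposited table held, for each gene and library, FPKM and estimated counts computed by the authors, per the file headers, and 2.0% of the estimated counts were not whole. Of tools, the submitters' processing notes list edgeR with no version. The genome build, aligner and counting program were not stated in any source used here. Of the gene numbers, 19502 matched RefSeq, from which symbols of 6 members were taken.

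Counts were rounded and tested with edgeR 4.0.16 in R 4.3.3 (filterByExpr, TMM, quasi-likelihood F test, two-sided, Benjamini-Hochberg over all genes tested, threshold 0.05). Size classes were compared on the 6 libraries of a tissue, and tissues and the size by tissue difference on all 30 libraries in 10 groups. An SE is the log2 fold change over the square root of F, and is not given where F was near 0. Normalised CPM are scaled by TMM within a tissue unless said otherwise.

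Alternatives were DESeq2 1.42.0, limma 3.58.1 on log2(FPKM + 1) or log2(FPKM + 0.1) with a minimum of 1 FPKM in 3 or more libraries or without it, RLE scaling, counts without a filter, 1 fit of all 30 libraries, only the 12 libraries of a tissue pair, a replicate block, and leaving out each library. Exact intervals are Clopper-Pearson at 95%. With 0 counts, 3 counts over the 6 libraries of a tissue were set as floor. Both cover counting error only.

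The members and gene lists were chosen with earlier results of these data known, and receptors matched by name were taken out of the list of other peptides. Named genes are all members, up to 4 tested genes of a list with the smallest p in brain or pituitary, receptors and hormone genes by their pituitary values, and the genes most correlated with a member. The tests were tried on simulated data with known changes. Exact tests ran in scipy 1.17.1 under Python 3.11.15, and plots in matplotlib 3.10.9. For the 6 tissue pairs without brain, DESeq2, the replicate block and leaving out each library were added after seeing the data.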

Additional observations from a re-analysis of the deposited data

Results flagged for a closer look

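The size effect of sst6.1 differed between tissues (edgeR, F test of 4 contrasts, adjusted p = 0.00348): its log2 fold change, large minus small, was -1.31 ± 0.32 in brain, -0.39 ± 0.12 in gonad and 1.59 ± 0.43 in muscle. All but 3 of the 10 oocyte markers passed this test as well. As said above, p-values of this test may rest on a spread that is not between fish.

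The same test was passed by 15 of 67 genes of 4 lists, beside 25.9% of all genes: 2 of 22 receptors, 5 of 12 processing genes, 6 of 23 other peptides and 2 of 10 of the hormone list. Of these 15, the 9 that the rule for named genes picked follow. Of the receptors, LOC103393002 (somatostatin receptor type 2-like, adjusted p = 0.0206) fell in gonad of large females by 1.59 ± 0.25 on the log2 scale, with 0.69 ± 0.26 in pituitary and 0.96 ± 0.53 in brain, neither of which passed. Of the processing genes, the change of prep (prolyl endopeptidase, adjusted p = 0.00675) was 0.60 ± 0.12 in gonad and -0.24 ± 0.16 in brain, that of qpctl (glutaminyl cyclase-like, adjusted p = 0.0124) 0.44 ± 0.13 in gonad and 0.89 ± 0.25 in muscle beside -0.02 ± 0.19 in brain, and that of pcsk2 (prohormone convertase 2, adjusted p = 0.0217) -0.59 ± 0.23 in pituitary and 0.13 ± 0.13 in brain. Of the other peptides, pmch (adjusted p = 3.36e-05) had a log2 fold change of -4.47 ± 0.51 in brain and 0.25 ± 0.30 in gonad, agrp (adjusted p = 0.00144) -6.75 ± 0.97 in brain and -0.91 ± 0.16 in pituitary, and pdyn (prodynorphin, adjusted p = 0.00774) -0.84 ± 0.23 in brain and 2.47 ± 0.85 in pituitary. In pituitary, pdyn was uneven between large libraries, at 8.29 ± 8.88 normalised CPM, beside 1.48 ± 1.05 in small females. Its log2 fold change in gonad was -1.41 ± 0.49. Of the hormone genes, tshba (adjusted p = 0.0388) had 1.03 ± 0.18 in pituitary and 1.41 ± 0.66 in brain, which have the same direction. Its liver level, not tested between size classes, was 4.40 ± 7.33 normalised CPM in small and 0.152 ± 0.050 in large females. Which tissue carried the result of tshba was not tested. LOC103389827 (pro-opiomelanocortin, adjusted p = 0.0416) had -0.45 ± 0.13 in pituitary and -3.34 ± 0.42 in brain. Of all these values, those that passed within their own tissue were the gonad and muscle values of sst6.1 and qpctl, the gonad values of prep and LOC103393002, and the pituitary values of agrp and tshba.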

How the results depend on the processing

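The number of members called between size classes moved from 0 to 1 in brain with DESeq2 (sst6.1), which called 0.498% of all genes there in place of 0.0118%. It moved from 0 to 1 in pituitary with 1 fit of all 30 libraries (adcyap1b). Of the 202 pituitary counts of adcyap1b, 199 were from large replicate 2 alone. In gonad it moved from 1 to 0 with limma on FPKM in each of 3 forms, with the replicate block and with all 30 libraries, and lay between 0 and 1 when single libraries were left out. In muscle it moved from 1 to 0 with limma in each of 3 forms, and between 0 and 1 with libraries left out. DESeq2 called 5 members in brain versus muscle in place of 8, and 69.9% of all genes in place of 74.8%. The share of all genes called under the other settings is not given here, so a change of the members alone cannot be told from one of all genes. With libraries left out, the size by tissue count was 1 to 3, pituitary versus liver 2 to 4 and pituitary versus gonad 3 to 4. The alternatives of tissue pairs without brain were chosen after seeing the data. The cause of these changes was not tested.

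Directions in brain that turned concern log2 fold changes that did not pass. With limma on log2(FPKM + 1), filtered or not, gnrh3 was at -0.27, sst1.1 at -0.052 and sst1.2 at -0.011, and with log2(FPKM + 0.1) at -1.07, -0.083 and -0.018. With libraries left out, crh ranged from -0.97 to 0.21, adcyap1b from -0.16 to 0.19, gnrh3 from -0.49 to 0.76, sst1.1 from -0.36 to 0.95 and sst1.2 from -0.15 to 0.61. In pituitary adcyap1a ranged from -0.25 to 1.023, in muscle adcyap1b from -0.13 to 0.29, and in brain versus muscle sst6.1 from -0.17 to 0.31. Apart from the counts, 1382 comparisons of a member with its alternative kept direction and side of the threshold, 35 lost the call, 7 gained it and 30 turned.

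Libraries of equal number were not treated as pairs: 3 of 15 correlations of their deviations between size classes were over 0.1 (-0.10 to 0.17), and in 0 of 5 tissues all were. Under the replicate block, gnrh3 in brain was at -0.064 and sst6.1 in gonad at -0.39 (adjusted p = 0.0533). Between tissues, 9 of 60 such correlations were over 0.1, and in 1 of 20 comparisons, large pituitary with large liver, all were, but not in small females. The block ended the call of adcyap1a in pituitary versus liver (adjusted p = 0.0517) and changed no other call of a member. Each call of a member between brain and another tissue held in all 12 fits that left out a library, though adcyap1b then reached 12.2 against pituitary and 11.5 against liver. In liver 0 members had counts enough to be tested between size classes.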

Other observations

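The transcript length implied by the deposited FPKM and estimated count of a library was nearly constant for 8 members, for example 1045 bases for crh in all 6 brain libraries, 530 bases for sst1.2 and 362 bases for sst1.1 in brain. For adcyap1b it ranged from 1738 to 2438 bases over the 6 brain libraries and from 1404 to 3253 bases over the 6 muscle libraries, and RefSeq lists 3 transcripts for this gene. The level of adcyap1b in FPKM therefore rests on a length that differs between libraries, while its counts do not.

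Of the 9 members, the third large brain library was the lowest of the 6 brain libraries for 5: adcyap1a, adcyap1b, sst1.1, sst1.2 and sst6.1. It was the lowest for 27.6% of all genes tested in brain, against 11.1% to 16.3% for the other 5 libraries.

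Over the 30 libraries, the genes most like the other members were LOC103381327 for crh (r = 0.94), hs3st4 for adcyap1a (r = 0.983), rfx4 for adcyap1b (r = 0.984) and LOC103378184 for gnrh2 (r = 0.95). No member was among the 3 genes most like another member.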
